A study of Mus musculus with 18 samples.

Results

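The transcripts of the DNA replication machinery were followed in C2C12 cells, a mouse myoblast line whose cells leave the cell cycle and fuse into myotubes when serum is withdrawn. The set held 51 genes of the 55450 in the count table, and all 51 passed the filter on low counts. They were taken by symbol, from a list chosen with earlier results of these data known, and were sorted into 9 roles. These were 11 genes of origin licensing, 6 of helicase activation, 4 kinases and E cyclins and 9 polymerase and primase subunits. A further 9 belonged to the sliding clamp, its loaders and Okazaki fragment joining. The rest were 3 of single-strand binding, 4 of deoxynucleotide supply, 2 of histone deposition and 3 of fork protection.

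The comparison covered 3 lines, each as myoblasts in growth medium and as myotubes on day 3 after the change to low-serum medium, with 3 libraries, named A, B and C, in each of the 6 groups and 18 in all. The control was a population of cells transfected with the empty pX458 vector, which carries Cas9 and EGFP, and sorted for EGFP. The overexpressor (Dlk1-Dio3 overexpressor) and the knockout (Dlk1-Dio3 knockout) came from the same transfection and sort with pairs of guide RNAs against the proximal promoter of Meg3, a noncoding RNA gene of the imprinted Dlk1-Dio3 cluster, and each was grown from a single cell. Every group had thus been transfected and sorted. Each genotype was 1 clone set against a population that was not cloned, so genotype and clone cannot be told apart. The labels give only that RNA was submitted in triplicate, so the p-values measure the spread between these samples, which may be technical. Meg3 was counted 5222 to 7763 times per overexpressor library and 0 times in every control and knockout library, so the directions given for the knockout rest on its label.

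A cell copies its genome once per cycle in 2 steps. In G1 the origin recognition complex, Cdc6 and Cdt1 load the Mcm2 to Mcm7 helicase rings onto origins, and in S phase the kinases Cdk2 and Cdc7 with Mcm10, Cdc45 and the GINS complex switch the rings on. Polymerases alpha, delta and epsilon then copy the strands, with the clamp Pcna, its loaders, the single-strand binding protein RPA, a supply of deoxynucleotides and the histone chaperone CAF-1 at the fork. Most of these genes are transcribed under the control of E2F factors, which the retinoblastoma family represses when muscle cells withdraw from the cycle.

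Since most of the members share this known control, the promoters of the members were searched for 4 words of the E2F site. These were TTTCCCGC, TTTGGCGC, TTTCGCGC and TTTGCCGC, on both strands, with overlapping words allowed. RefSeq promoters on GRCm38.p6, from 250 bases before to 50 after a transcription start, were at hand for 40 of the 51 members. At least 1 word was present in 16 of the 40 (40.0%), against 704 of 27025 genes in the whole table (2.6%) and 1 of 28 genes of a mitosis and spindle list (3.57%). TTTGCCGC was present in 0 members. The word CCAAT was present in 60.0% of the members, 75.0% of the mitosis genes and 41.1% of all genes. Either of the words TTTGAA and TTCGAA was present in 20.0%, 75.0% and 21.7%. A match to letters is a description of the promoter and does not show that a factor binds there. A missing match does not show that a promoter lacks a site.

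The 250 bases before the start are printed for 5 members on which the results below turn, 5′ to 3′ on the strand of the gene, with the E2F words in capitals. Cdc6, which loads the helicase rings, lies at chr11:98907901-98908150 on the plus strand and holds 1 word. This stretch lies inside the annotated Cdc6 gene, which starts at 98907801, and the annotated start was not searched. Mcm5 (chr8:75109259-75109508, plus) and Mcm6 (chr1:128359706-128359955, minus), both subunits of the rings, hold 2 and 3 words, some of them overlapping. Cdk2, the kinase (chr10:128705052-128705301, minus), holds 1 word and Orc6, the smallest subunit of the origin recognition complex (chr8:85299382-85299631, plus), holds 0.
Cdc6: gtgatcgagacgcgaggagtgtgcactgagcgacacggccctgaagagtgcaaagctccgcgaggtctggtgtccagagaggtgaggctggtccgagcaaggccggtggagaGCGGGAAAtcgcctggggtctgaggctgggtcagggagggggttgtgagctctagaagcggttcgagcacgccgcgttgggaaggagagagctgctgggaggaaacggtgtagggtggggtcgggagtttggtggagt
Mcm5: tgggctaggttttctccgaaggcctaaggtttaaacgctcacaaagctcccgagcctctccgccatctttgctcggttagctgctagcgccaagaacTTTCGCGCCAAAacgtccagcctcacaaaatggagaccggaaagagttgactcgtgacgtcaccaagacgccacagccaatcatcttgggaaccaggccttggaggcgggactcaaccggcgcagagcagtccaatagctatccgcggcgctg
Mcm6: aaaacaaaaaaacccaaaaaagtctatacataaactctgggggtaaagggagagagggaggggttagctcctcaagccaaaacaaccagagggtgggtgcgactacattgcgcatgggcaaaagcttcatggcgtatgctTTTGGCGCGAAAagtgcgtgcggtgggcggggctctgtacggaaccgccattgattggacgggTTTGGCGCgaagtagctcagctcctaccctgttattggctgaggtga
Cdk2: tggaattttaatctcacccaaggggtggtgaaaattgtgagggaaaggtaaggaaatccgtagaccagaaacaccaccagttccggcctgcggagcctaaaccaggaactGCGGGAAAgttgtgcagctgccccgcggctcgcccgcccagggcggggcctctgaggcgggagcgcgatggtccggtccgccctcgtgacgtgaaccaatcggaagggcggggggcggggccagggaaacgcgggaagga
Orc6: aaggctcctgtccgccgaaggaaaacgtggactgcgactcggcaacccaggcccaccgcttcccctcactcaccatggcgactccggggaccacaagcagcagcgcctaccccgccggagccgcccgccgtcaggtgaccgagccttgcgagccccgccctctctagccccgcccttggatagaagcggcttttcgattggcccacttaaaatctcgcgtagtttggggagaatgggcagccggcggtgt

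Library totals ran from 41544358 to 79140702 counts, so 3 counts, the upper limit that a count of 0 allows, came to 0.0375 to 0.0693 CPM (counts scaled to the library total and its trimmed mean of M values factor). This limit covers counting error only. The chi-square of counts per degree of freedom between replicates was 4.55 or more for every pair, and 2 libraries stood apart: overexpressor myotubes C (114.55 against A and 109.93 against B, with 22.23 between A and B) and overexpressor myoblasts B (35.01 and 31.02, with 8.02 between A and C). Knockout myotubes A and C also differed, at 52.85, with 20.28 between A and B and 23.06 between B and C. The muscle lineage genes Myod1 and Des were present in every library. Markers of other cell types, 4 genes for each type, were low but not all at 0. Epcam had 0 counts, Adgre1, Tie1 and Ibsp at most 1, and Adipoq and Acan at most 3 in any library. The endothelial markers summed to at most 0.559 CPM, the bone and cartilage markers to at most 1.38 CPM (mostly Col2a1 in knockout myoblasts) and the immune markers to at most 1.82 CPM (mostly Cd68). The epithelial markers, mostly Cdh1, summed in myotubes to 0.549 to 1.05 CPM for the control, 1.15 to 1.37 for the overexpressor and 1.94 to 2.34 for the knockout, so their level moved with the clones. The adipocyte markers, mostly Cebpa, a factor of fat and other cells, summed to 27.8 to 32.8, 5.51 to 7.73 and 20.5 to 22.8 CPM in the same groups. The part of these genes in the results was not tested.

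Every member fell when control myoblasts became myotubes. All 51 passed the test in the downward direction (edgeR quasi-likelihood test, Benjamini-Hochberg adjusted p under 0.05), against 28.8% of the 17912 genes tested, with a median log2 fold change of -2.59. The sum over the members was 4403 ± 247.7 CPM in control myoblasts and 966.1 ± 37.8 CPM in control myotubes (SD, n = 3). Myotube cultures hold unfused cells as well, and in such bulk RNA fewer cells of a type and less RNA per cell cannot be told apart. The fall was uneven: the median member kept 16.6% of its myoblast level, and 13 members kept under 10%.

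Cdc6 had the deepest fall in the control. It was at 34.2, 36.6 and 41.3 CPM in the 3 control myoblast libraries and at 1.86, 1.92 and 1.41 CPM in the myotube libraries, so that 4.63% was left (log2 fold change -4.44, SE 0.16, adjusted p = 4.26e-14). Mcm5 and Tk1, the salvage enzyme thymidine kinase, both kept 4.95%. Mcm10, a helicase activator, kept 5.91%, and Orc1, the subunit of the origin recognition complex that cycles with the cell cycle, kept 6.19%. At the other end Orc6 kept 73.7%, Gins4, a subunit of the GINS complex, kept 73.2%, and Rpa3, the small subunit of RPA, kept 60.8%.

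The median fall was smaller in both clones. In the overexpressor 50 of 51 members fell and 1 rose (background 33.0% lower and 29.8% higher), with a median of -1.82. In the knockout the counts were again 50 and 1 (background 35.6% and 29.8%), with a median of -1.33. The member that rose was Cdk2 in both clones. The median member kept 28.4% of the myoblast level in the overexpressor and 39.9% in the knockout, and 0 members kept under 10% in either. Under 25% was left for 34 members in the control, for 17 in the overexpressor and for 4 in the knockout. The lowest were Mcm10 and Tk1 at 16.2% in the overexpressor and Ccne2, an E cyclin, at 11.6% in the knockout.

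**Figure D1:**
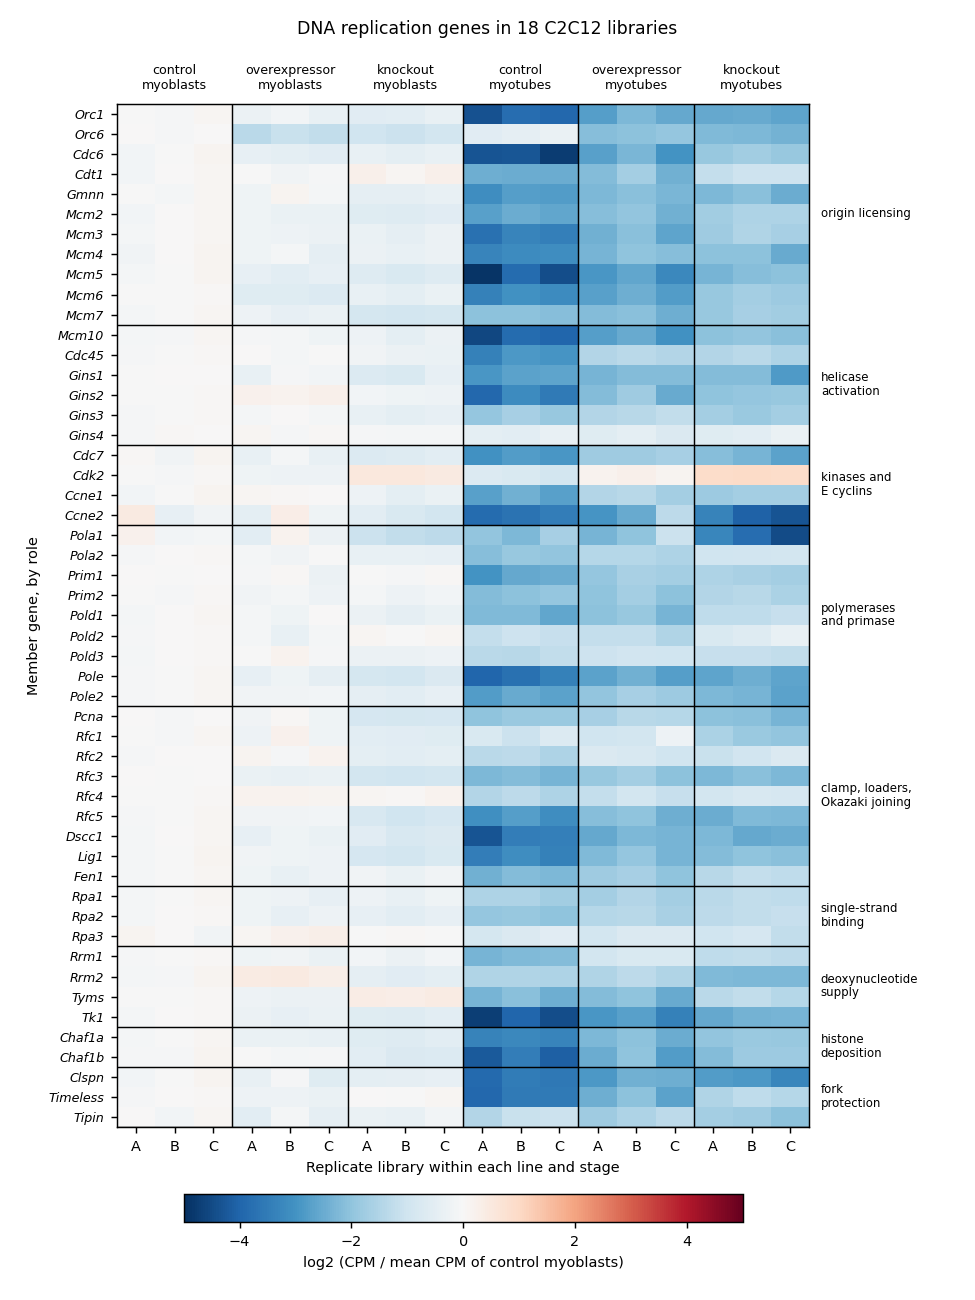
Each row is a member gene, ordered by role, and each column is 1 of the 18 libraries. Colour is the log2 ratio of CPM to the mean of the 3 control myoblast libraries, blue for lower. The 3 control myotube columns hold the deepest blue, with Cdc6 at 4.63% of its myoblast mean, and the myotube columns of both clones are paler for most rows.

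Across the 51 members, the log2 fold change of myotubes against myoblasts had a Pearson r of 0.85 between control and overexpressor, 0.56 between control and knockout and 0.63 between overexpressor and knockout. These are correlations across genes, which are not independent replicates, and no libraries are shared between the lines.

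**Figure D2:**
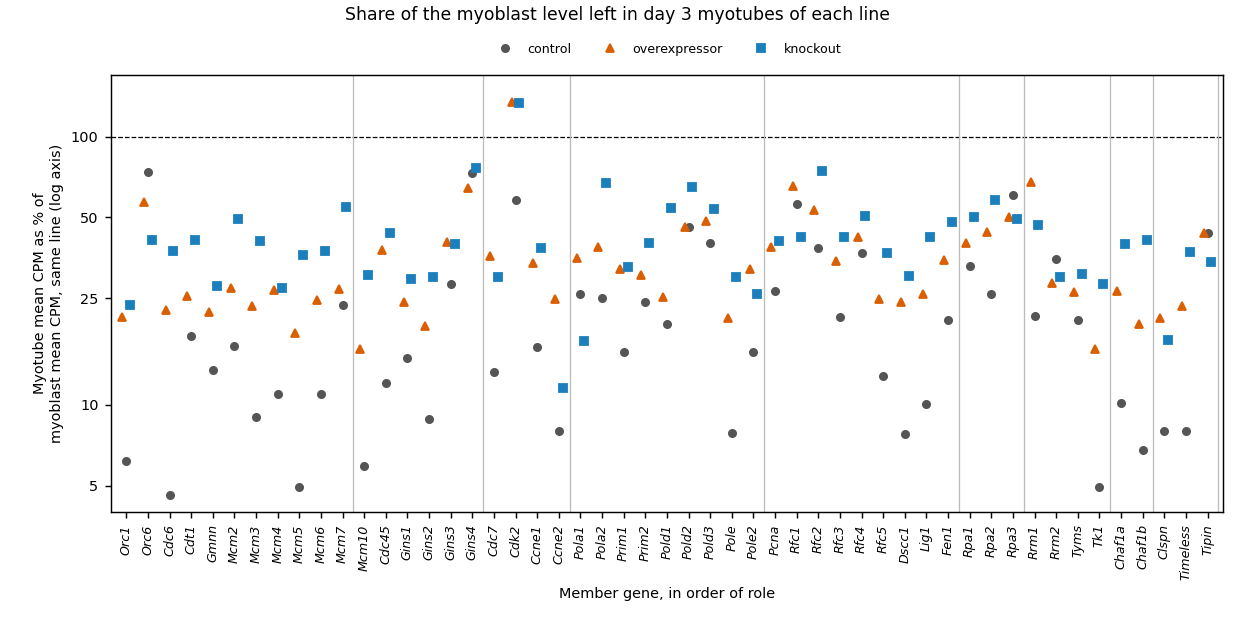
The vertical axis, on a log scale, is the mean CPM of 3 myotube libraries as a percentage of the mean of 3 myoblast libraries of the same line. Each gene has a grey circle for control, an orange triangle for the overexpressor and a blue square for the knockout, and grey lines divide the roles. The control lies lowest for most genes, the exceptions include Orc6, Gins4, Rpa3 and Rrm2, and Cdk2 is the gene above 100% in both clones.

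The difference in response between each clone and the control was tested as an interaction. In the overexpressor the log2 change from myoblasts to myotubes was higher than in the control for 37 members and lower for 2 (background 16.6% and 22.3% of genes), and in the knockout it was higher for 43 and lower for 1 (background 20.2% and 29.9%). The higher members fell less than in the control, except Cdk2, which rose in both clones. The median difference was 0.76 and 1.17 on the log2 scale, against -0.05 and -0.12 over all genes tested. Both differences use the same 6 control libraries. Cdc6 led in both, with a difference of 2.29 (SE 0.20, adjusted p = 4.84e-08) for the overexpressor and 3.02 (SE 0.20, adjusted p = 1.1e-09) for the knockout. Orc6 fell further in both clones, by -0.36 (adjusted p = 0.0173) and -0.84 (adjusted p = 9.38e-06). For the overexpressor this call was lost without overexpressor myoblasts B (adjusted p = 0.0506), control myotubes C (0.0534) or overexpressor myotubes A (0.0509), and Orc6 and the ribonucleotide reductase subunit Rrm2 were the 2 members that fell more there. For Rrm2 the difference was -0.30 (adjusted p = 0.0197), and it lost the call without control myoblasts A (0.0646), control myoblasts B (0.0616) or overexpressor myotubes C (0.244). Without that last library, the change was higher than in the control for 43 members and lower for 1. In the knockout Rrm2 did not pass (-0.23, adjusted p = 0.0612), but it did without control myoblasts C (0.012) or knockout myoblasts B (0.0453), where 2 members fell more. Scaling by DESeq2 size factors ended the overexpressor calls of Orc6 (adjusted p = 0.0836) and Rrm2 (0.191), as did library totals (0.286 and 0.407).

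Myotubes of the clones were next compared directly with control myotubes, to describe the replication transcripts that remained after differentiation. The sum over the members was 1300 to 1471 CPM in the overexpressor and 1433 to 1532 CPM in the knockout, and 929.2 to 1005 CPM in the control, so neither clone overlapped the control. In the overexpressor 38 members were higher and 2 lower, against 26.2% and 30.9% of the genes tested, with a median of 0.56 (all genes -0.04). In the knockout 38 were higher and 7 lower, against 31.0% and 37.0%, with a median of 0.86 (all genes -0.07). The 2 comparisons share the control libraries. Library values did not overlap and were higher for 38 members in each clone (background 27.8% and 32.9%), and lower for Orc6 and Pold2 in the overexpressor and for 6 members in the knockout (background 32.1% and 38.1%). Without overexpressor myotubes C, the library that stood apart, 42 members were higher and 2 lower in that clone. The lower count in the overexpressor was 1 without control myotubes B or C or overexpressor myotubes A or B. With DESeq2 size factors the all-gene medians moved to 0.07 and 0.06, so small changes are read against that shift.

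Muscle genes were measured beside these counts. Myog, Myh3, Ckm, Tnnt3, Acta1 and Mymk, 6 of 6 present, summed to 13600 to 14100 CPM in control myotubes, 20800 to 22900 in the overexpressor and 29500 to 35100 in the knockout. A list of myoblast genes, Myod1, Myf5, Des and Pax7, 4 of 4 present, summed to 2270 to 2370, 5180 to 6300 and 7360 to 9870 CPM. Most of this sum was Des, the muscle intermediate filament gene, which was at 2105, 5460 and 8133 CPM on average and was higher in myotubes than in myoblasts of each line. Pax7, a marker of muscle stem cells, averaged 4.17 CPM in overexpressor myotubes, below the 5.64 CPM of the control, and 12.6 CPM in the knockout. Neither clone overlapped the control in either sum, and both sums were higher in both clones. Their part in the result was not tested.

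**Figure D3:**
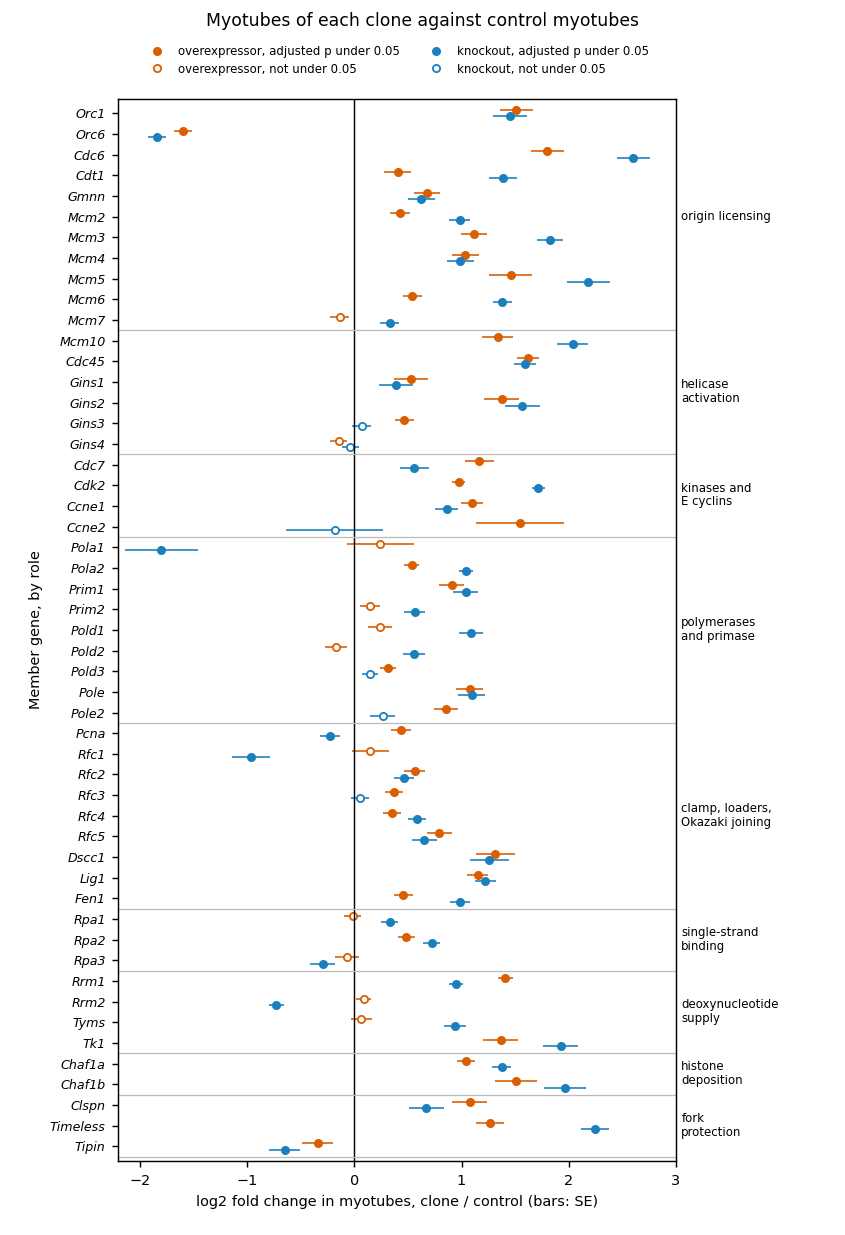
Points are log2 fold changes of overexpressor (orange) and knockout (blue) myotubes against control myotubes for the 51 members, by role, with bars of 1 SE, and filled points passed an adjusted p of 0.05. Most points lie right of 0 in both clones, while Orc6 lies left in both, at -1.60 and -1.83, and Pola1 lies left in the knockout alone, at -1.80.

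Among the 11 origin licensing genes, 9 were higher and 1 lower in overexpressor myotubes (background 26.2% and 30.9% of genes). In knockout myotubes 10 were higher and 1 lower (background 31.0% and 37.0%). Cdc6 was at 5.64, 7.57 and 4.76 CPM in the overexpressor and at 10.0, 11.2 and 10.2 CPM in the knockout, beside 1.41 to 1.92 CPM in the control. All 3 groups were apart, with the knockout highest. The log2 fold change was 1.80 (SE 0.15, adjusted p = 1.1e-08), or 3.48-fold, in the overexpressor and 2.60 (SE 0.15, adjusted p = 6.27e-11), or 6.07-fold, in the knockout. A processed pseudogene of Cdc6, Gm9430, is 95.2% identical over 1528 bases and held 2 to 78 counts per library, where Cdc6 held 78 to 1903.

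The helicase rings need all 6 Mcm2 to Mcm7 subunits in equal amounts, and their transcripts were compared per kilobase of exon, in CPM per kb. In control myoblasts they lay between 30.1 for Mcm2 and 60.6 for Mcm6, and in control myotubes between 2.92 for Mcm5 and 8.79 for Mcm7. Mcm5 thus moved from the second highest of the 6 to the lowest, and Mcm7 from the second lowest to the highest. In knockout myotubes the 6 lay between 9.86 for Mcm4 and 17.4 for Mcm6, and in overexpressor myotubes between 6.71 for Mcm2 and 10.4 for Mcm3.

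Mcm5 was at 7.82 to 16.2 CPM in control myotubes, 31.3, 38.7 and 25.6 in the overexpressor and 47.1, 53.6 and 57.4 in the knockout. The groups did not overlap, and Mcm5 rose by 1.46 (SE 0.20, adjusted p = 1.4e-05) in the overexpressor and by 2.18 (SE 0.20, adjusted p = 1.67e-07) in the knockout. Mcm2, Mcm3, Mcm4 and Mcm6 rose in both clones as well, by 0.43 to 1.12 in the overexpressor and by 0.98 to 1.83 in the knockout. Mcm7 differed from the rest of the ring. It was at 39.8, 39.5 and 37.4 CPM in the control, 36.9, 39.0 and 30.2 in the overexpressor, which overlapped the control, and 44.4, 52.6 and 49.8 in the knockout, which lay above it. The log2 fold change of Mcm7 was -0.14 (adjusted p = 0.186) and 0.33 (SE 0.09, adjusted p = 0.00245), and the first value became 0.07 without overexpressor myotubes C. Mcm7 hosts the microRNA genes Mir25 and Mir93, shares 7.25% of its exon length with Ap4m1 on the opposite strand, and has a 97.7% identical pseudogene, Gm5487, with 319 to 1500 counts.

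Gmnn, whose product geminin blocks relicensing by holding Cdt1, rose by 0.68 and 0.63. Cdt1 itself rose by 0.41 in the overexpressor and by 1.39 in the knockout. Orc1 rose by 1.51 and 1.45, to 0.622 and 0.598 CPM per kb from 0.219 in the control. Orc1 shares 10.81% of its exon length with an opposite transcript, Gm12743.

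Orc6 was the member that went against its role. Its values were 47.8, 52.5 and 56.5 CPM in control myotubes, 16.0, 17.1 and 18.6 in the overexpressor and 15.2, 14.9 and 13.8 in the knockout. Both clones lay far below the control, by 3.03-fold and 3.57-fold (log2 fold change -1.60, SE 0.08, adjusted p = 1.29e-11, and -1.83, SE 0.08, adjusted p = 1.96e-12). The difference was present before differentiation: Orc6 was at 71.8, 68.4 and 72.4 CPM in control myoblasts, 27.7, 32.7 and 29.9 in overexpressor myoblasts and 35.8, 33.6 and 37.5 in knockout myoblasts. The changes in myoblasts were -1.24 (adjusted p = 7.71e-10) and -0.99 (adjusted p = 9.09e-09), with no overlap. Orc6 overlaps Vps35 on the opposite strand over 6.93% of its exon length.

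Of the 6 helicase activation genes, 5 were higher in overexpressor and 4 in knockout myotubes (background 26.2% and 31.0% of genes). In both clones 0 were lower (background 30.9% and 37.0%). Mcm10 was at 1.67, 2.68 and 2.51 CPM in the control, 5.79, 6.68 and 4.76 in the overexpressor and 9.20, 9.84 and 8.97 in the knockout. The groups did not overlap, and Mcm10 rose by 1.34 (SE 0.15, adjusted p = 3.01e-07) and, in the knockout, by 2.04 (SE 0.15, adjusted p = 9.2e-10). Cdc45, which joins the rings with GINS into the active helicase, rose by 1.62 and 1.59. The 4 GINS subunits did not move as 1 unit. Gins2 rose by 1.38 and 1.56, although 67.32% of its exon length overlaps Gse1 on the opposite strand, and Gins1 rose by 0.53 and 0.39. Gins3 rose by 0.47 in the overexpressor and had 0.07 in the knockout, which did not pass. Gins4 was at 28.2, 27.2 and 30.8 CPM in the control, 26.1, 28.0 and 24.0 in the overexpressor and 26.1, 26.9 and 31.1 in the knockout, all overlapping, with -0.14 (adjusted p = 0.135) and -0.04 (adjusted p = 0.702). The sign of Gins4 turned without overexpressor myotubes C (0.015), control myotubes C (0.015) or knockout myotubes A (0.014).

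The kinases and E cyclins held the member whose differentiation response had the opposite sign in the clones. Cdk2, which with cyclin E starts S phase, was at 65.6, 65.0 and 70.0 CPM in control myoblasts and at 41.1, 39.6 and 35.4 CPM in control myotubes, a fall (log2 fold change -0.79, SE 0.06, adjusted p = 2.53e-09). In the overexpressor it went from 57.6, 56.1 and 55.8 to 74.6, 79.6 and 74.2 CPM, a rise of 0.43 (adjusted p = 6.06e-06). In the knockout it went from 97.3, 97.0 and 91.6 to 125, 131 and 126 CPM, a rise of 0.42 (adjusted p = 1.05e-05).

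Within each line the Cdk2 values of the 2 stages did not overlap. The difference in response was 1.22 (SE 0.09, adjusted p = 3.13e-09) for the overexpressor and 1.20 (SE 0.09, adjusted p = 2.95e-09) for the knockout. In myotubes Cdk2 was 1.97-fold and 3.28-fold above the control, and the knockout was above the overexpressor (log2 difference of overexpressor against knockout -0.74, SE 0.06, adjusted p = 1.77e-08). The knockout also exceeded the control in myoblasts (0.51, SE 0.06, adjusted p = 1.13e-06), where the overexpressor was slightly lower (-0.24, adjusted p = 0.00357).

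Cdc7, the kinase that activates loaded rings, rose by 1.17 in overexpressor and 0.56 in knockout myotubes, and the cyclin gene Ccne1 rose by 1.10 and 0.86. Ccne2, its paralog, parted the clones. It was at 1.21, 1.35 and 1.59 CPM in control myotubes, 2.23, 3.03 and 6.92 in the overexpressor and 1.73, 1.06 and 0.857 in the knockout. The overexpressor lay above the control in every library, with library C highest, and the knockout overlapped the control. The rise in the overexpressor was 1.55 (SE 0.41, adjusted p = 0.00469), the knockout value was -0.18 (SE 0.45, adjusted p = 0.737), and the clones differed from each other (1.73, SE 0.41, adjusted p = 0.00238). Without overexpressor myotubes C the overexpressor value was 1.03 (adjusted p = 0.0141) and the difference between the clones 1.13 (adjusted p = 0.00923), and without knockout myotubes C the knockout value was 0.0039. Of the exon length of Ccne2, 17.42% overlaps Ints8 on the opposite strand.

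Among the 9 polymerase and primase genes, 5 were higher and 0 lower in overexpressor myotubes (background 26.2% and 30.9% of genes). In knockout myotubes 6 were higher and 1 lower (background 31.0% and 37.0%). Pole, the catalytic subunit of the leading-strand polymerase epsilon, was at 4.57, 5.47 and 6.84 CPM in the control, 11.4, 13.5 and 10.8 in the overexpressor and 11.5, 13.1 and 11.5 in the knockout. Both clones lay above the control and overlapped each other, with 1.08 (SE 0.13, adjusted p = 7.02e-07) and 1.09 (SE 0.13, adjusted p = 5.16e-07). Its partner Pole2 rose by 0.86 in the overexpressor and had 0.27 in the knockout, which did not pass.

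Pola1, the catalytic subunit of polymerase alpha, which starts each Okazaki fragment, went the other way in the knockout. It was at 7.96, 6.52 and 9.67 CPM in control myotubes, 6.24, 7.58 and 14.9 in the overexpressor and 3.26, 2.23 and 1.40 in the knockout. The knockout lay below both other groups, and overexpressor C lay far above A and B. The log2 fold change was -1.80 (SE 0.34, adjusted p = 0.000268) in the knockout and 0.24 (SE 0.31, adjusted p = 0.527) in the overexpressor, where it was -0.12 without library C. The other subunits of the same complex rose in the knockout, Pola2 by 1.04, Prim1 by 1.04 and Prim2 by 0.56. Pola1 was also lower in knockout than in control myoblasts (-1.22, SE 0.31, adjusted p = 0.00353).

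For polymerase delta, which extends the Okazaki fragments, Pold1 and Pold2 rose in the knockout by 1.09 and 0.56 and Pold3 rose in the overexpressor by 0.32. Pold2 was at 30.71, 34.5 and 31.2 CPM in the control, 30.65, 30.3 and 24.6 in the overexpressor and 41.8, 45.4 and 54.5 in the knockout. The overexpressor lay just under the control without overlap and the knockout lay above it. The overexpressor value for Pold2, -0.17, did not pass (adjusted p = 0.164) and was 0.03 without overexpressor myotubes C, and the knockout value passed (0.56, SE 0.10, adjusted p = 0.000113).

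Of the 9 genes of the clamp, its loaders and fragment joining, 8 were higher and 0 lower in overexpressor myotubes (background 26.2% and 30.9%). In knockout myotubes 6 were higher and 2 lower (background 31.0% and 37.0%). Dscc1, a subunit of the alternative clamp loader built with Chtf18, was at 0.474, 0.847 and 0.866 CPM in the control, 1.60, 1.98 and 1.85 in the overexpressor and 1.96, 1.59 and 1.67 in the knockout. Both clones lay above the control, with 1.32 (SE 0.18, adjusted p = 5.21e-06) and 1.26 (SE 0.18, adjusted p = 8.97e-06). Lig1, which seals the fragments, rose by 1.15 and 1.22. Fen1, which trims their flaps, rose by 0.46 and 0.99, although 78.82% of its exon length overlaps the antisense gene Gm10143. The small loader subunits Rfc2, Rfc4 and Rfc5 rose in both clones, by 0.35 to 0.79 and by 0.46 to 0.65, and Rfc3 rose in the overexpressor (0.37), with 0.05 in the knockout.

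Rfc1, the large loader subunit, and Pcna were the 2 that were lower in the knockout. Rfc1 was at 43.5, 35.2 and 45.9 CPM in the control, 36.9, 39.7 and 61.9 in the overexpressor and 24.8, 20.2 and 19.0 in the knockout. The knockout lay below the control (-0.96, SE 0.18, adjusted p = 0.000161), and the overexpressor overlapped it (0.15, adjusted p = 0.478, and -0.016 without library C). Pcna was at 21.4, 23.8 and 24.3 CPM in the control, 27.7, 33.8 and 32.7 in the overexpressor and 21.2, 20.6 and 17.4 in the knockout. The overexpressor lay above the control (0.44, SE 0.09, adjusted p = 0.000493) and the knockout just under it (-0.23, SE 0.09, adjusted p = 0.0387).

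The Pcna call in the knockout was lost without control myotubes B (-0.21, adjusted p = 0.0927), control myotubes C (-0.19, adjusted p = 0.122) or knockout myotubes C (-0.14, adjusted p = 0.195). It was also lost under DESeq2 size factors, library totals and the DESeq2 Wald test. Counts of Pcna are uncertain, because the pseudogene Pcna-ps2 is 99.2% identical over 781 bases and held 817 to 4258 counts, where Pcna held 834 to 4719.

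The 3 subunits of RPA, which work as a trimer, moved apart in knockout myotubes. Rpa2 was at 13.5, 13.8 and 13.0 CPM in the control, 19.3, 20.0 and 17.0 in the overexpressor and 20.7, 22.2 and 23.4 in the knockout, above the control in both clones (0.49, adjusted p = 4.16e-05, and 0.72, adjusted p = 3.17e-07). Rpa1 was at 93.0, 91.5 and 80.5 CPM in the control, 83.4, 96.8 and 81.9 in the overexpressor, which overlapped it, and 106, 116 and 111 in the knockout. Only the knockout value of Rpa1 passed (0.33, SE 0.08, adjusted p = 0.00132), and the overexpressor value of -0.015 (adjusted p = 0.884) ran up to 0.13 without overexpressor myotubes C. Rpa3 was at 8.79, 9.75 and 10.9 CPM in the control, 8.55, 9.74 and 9.88 in the overexpressor and 8.18, 8.92 and 6.88 in the knockout. All 3 groups overlapped, and the knockout value of Rpa3 passed narrowly (-0.29, SE 0.11, adjusted p = 0.0278). That call was lost without control myotubes C (adjusted p = 0.14) or knockout myotubes C (adjusted p = 0.145), under both other scalings and under the DESeq2 Wald test. The overexpressor value of Rpa3 was -0.06 (adjusted p = 0.65) and turned positive under both other scalings.

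In deoxynucleotide supply, Tk1 had the largest change in the knockout and Rrm1 in the overexpressor. Tk1 was at 4.22, 7.21 and 5.14 CPM in control myotubes, 14.7, 17.0 and 10.8 in the overexpressor and 19.0, 21.5 and 22.2 in the knockout. The 3 groups did not overlap, and the rises were 1.37 (SE 0.16, adjusted p = 1.83e-06), or 2.58-fold, and 1.93 (SE 0.17, adjusted p = 2.54e-08), or 3.80-fold.

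The 2 subunits of ribonucleotide reductase, the enzyme that makes deoxynucleotides, moved in opposite directions in the knockout. Rrm1, the large subunit, was at 72.2, 78.9 and 80.8 CPM in control myotubes, 189, 215 and 212 in the overexpressor and 148, 154 and 146 in the knockout, and it rose by 1.41 (adjusted p = 4.7e-12) and 0.95 (adjusted p = 8.32e-10). Rrm2, the small subunit that cycles with S phase, was at 136, 139 and 133 CPM in the control, 139, 156 and 139 in the overexpressor and 84.5, 81.0 and 81.2 in the knockout. The knockout lay below the control (-0.73, SE 0.07, adjusted p = 4.35e-08), and the overexpressor overlapped it (0.09, adjusted p = 0.301). The overexpressor value of Rrm2 passed without overexpressor myotubes C (0.22, adjusted p = 0.0206). It also passed with DESeq2 size factors (0.20, adjusted p = 0.0329). Tyms, which makes thymidylate, rose in the knockout (0.94), with 0.07 in the overexpressor.

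Both large CAF-1 subunits, which deposit histones on new DNA, rose in both clones. Chaf1b was at 2.73, 4.60 and 3.01 CPM in the control, 9.19, 12.7 and 7.28 in the overexpressor and 11.4, 14.4 and 14.4 in the knockout. The clones lay above the control and overlapped each other, with 1.51 (SE 0.19, adjusted p = 4.48e-06) and 1.97 (SE 0.20, adjusted p = 1.75e-07). Chaf1a was at 12.2 to 13.3 CPM in the control, 22.0 to 29.6 in the overexpressor and 31.5 to 33.9 in the knockout, but 52.5% of its exon length overlaps Ubxn6.

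**Figure D4:**
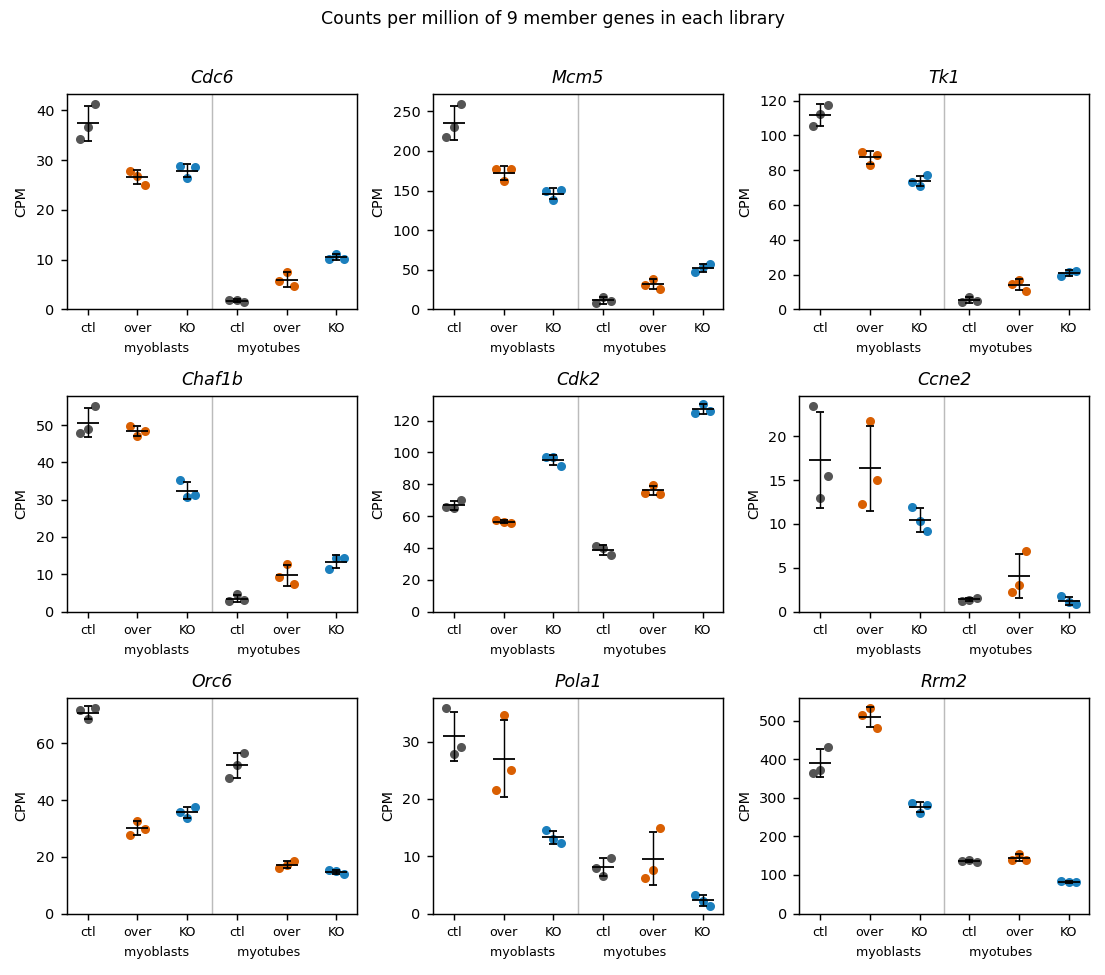
CPM of 9 members in every library, with myoblasts on the left and myotubes on the right of each panel, for control (ctl, grey), overexpressor (over, orange) and knockout (KO, blue). Points are libraries, and black marks give the mean with SD over 3 libraries. Cdk2 is higher in myotubes than in myoblasts in both clones, Orc6 is lower in both clones at both stages, and 1 overexpressor myotube library stands above the other 2 for Ccne2 and Pola1.

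Fork protection split between partners. Timeless was at 3.01, 3.96 and 3.95 CPM in control myotubes, 8.33, 10.8 and 7.10 in the overexpressor and 16.2, 18.7 and 17.0 in the knockout, with no overlap between groups (1.27, SE 0.13, adjusted p = 1.5e-07, and 2.25, SE 0.13, adjusted p = 6.22e-11). Clspn, whose product claspin links the fork to the checkpoint, rose by 1.08 and 0.67. Tipin, whose product binds that of Timeless, was at 13.4, 17.1 and 17.6 CPM in the control, 10.6, 12.7 and 14.6 in the overexpressor and 11.3, 10.6 and 8.72 in the knockout. The knockout lay below the control (-0.65, SE 0.14, adjusted p = 0.000643), and the overexpressor overlapped it (-0.34, SE 0.14, adjusted p = 0.0479).

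The overexpressor call for Tipin was lost without control myotubes B (adjusted p = 0.138), control myotubes C (0.166), overexpressor myotubes A (0.205) or overexpressor myotubes B (0.0897), and with DESeq2 size factors (0.142) or library totals (0.28). With it lost, Orc6 is the 1 member called lower in overexpressor myotubes.

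The clones were also compared with each other in myotubes. Here 12 members were higher and 22 lower in the overexpressor than in the knockout (background 30.6% and 29.1%), with a median of -0.07. Origin licensing leaned to the knockout, with 7 of 11 genes higher there, from Mcm7 (-0.47) to Cdt1 (-0.98), and Orc6 alone higher in the overexpressor (0.24, adjusted p = 0.0197). The Orc6 call was lost without overexpressor myotubes C (adjusted p = 0.0574) or knockout myotubes C (0.0787). The largest differences towards the overexpressor were in Pola1 (2.04, SE 0.34, adjusted p = 0.000122), Ccne2 and Rfc1 (1.11, SE 0.18, adjusted p = 6.23e-05). Mcm4, Cdc45, Pole, Dscc1 and Lig1 had values between -0.07 and 0.06, none of which passed.

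Before differentiation, 38 of the 51 members were lower in the knockout than in the control and 14 in the overexpressor. The members summed to 4193 to 4676 CPM in control myoblasts, 3732 to 3930 in the overexpressor and 3194 to 3426 in the knockout, with no overlap between groups. In the overexpressor 14 members were lower, 1 was higher and 36 were not called against the control (background 19.7% lower and 20.7% higher). The median was -0.19. With 1 library left out, 10 to 14 were lower. The counts were the same without overexpressor myoblasts B. Without control myoblasts C, 10 of 51 were lower, near the background share of the full fit. In the knockout 38 were lower (30 to 38 with 1 library left out) and 2 higher (background 26.6% and 26.4%), with a median of -0.42. All-gene medians were 0.02 in both. The higher members were Rrm2 in the overexpressor (0.39, adjusted p = 0.000161) and Cdk2 and Tyms (0.37, adjusted p = 0.00323) in the knockout. Among 34 mitosis and spindle genes in knockout myoblasts, 17 were lower and 0 higher.

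In knockout myoblasts Pola1 had the lowest value among the members, -1.22. Orc6 followed at -0.99, Rfc3 was at -0.95, Mcm7 at -0.89, Rfc5 at -0.88, Pcna at -0.85 and Lig1 at -0.84. The fall in Cdc6 (-0.42, adjusted p = 0.0105) lost its call without control myoblasts C (adjusted p = 0.0591). Between the clones, 24 members were higher and 5 lower in overexpressor than in knockout myoblasts (background 25.7% and 26.9%). With 1 library left out, 16 to 20 were higher and 2 to 4 lower. Without overexpressor myoblasts B, 19 were higher and 3 lower. Knockout myoblasts expressed differentiation genes: the 6 listed above summed to 9130 to 11700 CPM, beside 243 to 372 CPM in control myoblasts and 423 to 699 in the overexpressor. The part of this in the lower replication genes was not tested.

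The percentages kept on differentiation, given above, depend on the level at the start as well as at the end. For Mcm5 the myoblast level was 218, 230 and 259 CPM in the control and 149, 138 and 151 CPM in the knockout, while the myotube level was higher in the knockout. The difference in response for Mcm5 in the knockout was 2.87 (SE 0.27, adjusted p = 6.27e-07). It adds a log2 level 2.18 higher than the control in myotubes to a level 0.69 lower than the control in myoblasts. Large differences in the knockout response were also found for Chaf1b (2.61), Tk1 (2.52), Mcm10 (2.38), Timeless (2.21), Mcm3 (2.18) and Lig1 (2.07), with adjusted p-values of 5.29e-07 or lower. Timeless had 0.04 in knockout myoblasts (adjusted p = 0.828) and 2.25 in knockout myotubes.

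Members with and without a promoter word were also set side by side. Only exact matches to 4 words were searched, so members without a word may still hold an E2F site. The part of E2F control in these changes was not tested. In myotubes the 16 members with an E2F word had a median log2 fold change of 0.70 in the overexpressor and 1.16 in the knockout, and the 24 members without one had 0.51 and 0.90. The ranges overlapped almost wholly: with a word they ran from -0.14 to 1.80 and from -1.80 to 2.60, and without one from -1.60 to 1.62 and from -1.83 to 2.25. Pola1, which was lowest in the knockout among those with a word, holds TTTGGCGC. Mcm10, Tk1, Chaf1b and Timeless hold none of the 4 words in the promoters searched. For Timeless that promoter, chr10:128237816-128238115, lies inside the annotated gene, which starts at 128232065, and the annotated start was not searched.

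Beyond the members, a further list held other replication proteins. Of these 40 genes, 17 were higher and 7 lower in overexpressor myotubes (background 26.2% and 30.9% of genes), with a median of 0.22. In knockout myotubes 16 were higher and 14 lower (background 31.0% and 37.0%), with a median of -0.05, so that both shares were near the background. The highest in both clones was Uhrf1, which guides maintenance of DNA methylation behind the fork (2.20, SE 0.14, adjusted p = 2.47e-10, and 2.56, SE 0.14, adjusted p = 3.31e-11). The lowest were Rnaseh2a, a subunit of the nuclease that removes RNA primers, in the overexpressor (-1.30, adjusted p = 8.78e-10) and Rrm2b, the reductase subunit used outside S phase, in the knockout (-2.11, adjusted p = 2.95e-05).

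The other subunits of the origin recognition complex, chosen here after their values were seen, help to place Orc6. Orc2, Orc3, Orc4 and Orc5 were at 3.23 to 8.49 CPM per kb in control myotubes, below Orc6 at 21.2. In overexpressor myotubes Orc6 was at 6.99, between Orc4 at 4.56 and Orc3 at 8.24. Against the control, Orc5 was lower in both clones (-0.46, adjusted p = 0.000142, and -0.21, adjusted p = 0.0377), and Orc3 (-0.75, adjusted p = 0.000118) and Orc4 (-0.87, adjusted p = 0.0241) were lower in the knockout.

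Of 34 mitosis and spindle genes, 31 were higher and 0 lower in overexpressor myotubes (background 26.2% and 30.9% of genes), with a median of 0.89. In knockout myotubes 21 of the 34 were higher and 0 lower (background 31.0% and 37.0%), with a median of 0.53. Among them Mki67, a marker of cycling cells, rose in the overexpressor (1.00, SE 0.27, adjusted p = 0.00498) and had -0.04 (adjusted p = 0.90) in the knockout, while Top2a, which untangles chromosomes, rose by 0.73 in both (adjusted p = 0.00252 and 0.00218). The summed level of this list was 338 to 443 CPM in control, 648 to 756 in overexpressor and 624 to 720 in knockout myotubes, beside 4400 to 4660 CPM in control myoblasts. Cdkn1a, the Cdk inhibitor p21 that accompanies cell cycle exit, was higher in both clones as well (0.30, adjusted p = 0.0151, and 0.94, adjusted p = 2.15e-07).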

How the data were processed

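Polyadenylated RNA of 18 C2C12 libraries was sequenced, and the authors deposited raw counts per mouse gene. The submitters' processing notes name STAR 2.7.9a, featureCounts of Subread 2.0.3, FastQC 0.11.7, DESeq2 1.32.0 and mm10, without roles; the annotation release and strand setting are not given in the sources used here, so opposite-strand overlaps and near-identical copies leave counts uncertain. Libraries were grouped by genotype and cell type labels. Positions came from GENCODE M21 on GRCm38.

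All 18 libraries entered 1 fit with edgeR 4.0.16 in R 4.3.3 (filterByExpr by group, TMM factors 0.895 to 1.08, robust quasi-likelihood test, 12 residual degrees of freedom). The filter kept 17912 genes and at least 99.97% of counts. P-values were adjusted by Benjamini-Hochberg over those genes within each contrast, with a threshold of 0.05. The fit was tried on simulated counts with the same spread for every gene and library. The spread between the real libraries was uneven, so that trial does not measure the error rate in these data. DESeq2 1.42.0 served as an alternative. The members and lists were chosen with earlier results of these data known. Members described by library were, per role, those with the largest and smallest mean change in myotubes and any called against its role; Mcm5, Rrm1 and a few others were added after their values were seen. Replicate letters were checked for pairing: 4 of 45 same-letter pairs had a correlation over 0.1, so no pairing was used.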

Additional observations from a re-analysis of the deposited data

Results flagged for a closer look

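The results given here are differences in the differentiation response (myotubes against myoblasts) between a clone and the control, each by the interaction test of the same edgeR fit. For the overexpressor the log2 change was higher than in the control for 37 members and lower for 2 (background 16.6% and 22.3% of genes), and for the knockout it was higher for 43 and lower for 1 (background 20.2% and 29.9%). Both sets of differences use the same control libraries.

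Cdk2 fell in the control and rose in both clones, with differences of 1.22 and 1.20 on the log2 scale. Orc6 fell further in both clones, with -0.36 in the overexpressor and -0.84 in the knockout. Rrm2 fell further in the overexpressor, with -0.30. The overexpressor calls of Orc6 and Rrm2 were lost with DESeq2 size factors, library totals, the DESeq2 Wald test or no filter on low counts. Each was also lost when certain single libraries were left out. Cdc6 had the highest difference in each clone, 2.29 and 3.02. Members with a difference of at least 2 in the knockout were, besides Cdc6, Mcm5 (2.87), Chaf1b (2.61), Tk1 (2.52), Mcm10 (2.38), Timeless (2.21), Mcm3 (2.18) and Lig1 (2.07). Groups held 3 libraries each, so single libraries were not tested as outliers.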

How the results depend on the processing

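Counts of members called higher or lower were recomputed with other scalings, DESeq2, no filter on low counts, a replicate block, the compared groups alone, pseudogene copies added (chosen after seeing the data), and each library left out. Members lower in overexpressor myotubes were 1 with DESeq2 size factors, library totals, the DESeq2 Wald test, no filter, the replicate block and the compared groups alone, and 1 to 2 with 1 library left out. With the compared groups alone, members higher in overexpressor myoblasts were 2 and lower 26 (1, and 10 to 14, with 1 library left out). Members lower in overexpressor than in knockout myoblasts were 3 with DESeq2 size factors and the Wald test (2 to 4). Members whose overexpressor response was lower were 0 with DESeq2 size factors, library totals, the Wald test and no filter (1 to 2), and for the knockout 2 with copies added (1 to 2).

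For the named members, the replicate block kept 240 of 242 results on their side of the threshold and ended 2 calls, Tipin in overexpressor myotubes (adjusted p = 0.0531) and Dscc1 between the clones in myoblasts (adjusted p = 0.0569). The letters share only a name. Reversals under the other settings were of values that did not pass. With DESeq2 size factors, the Wald test, library totals and the compared groups alone, Gins4 in knockout myotubes was 0.098, 0.097, 0.0089 and 0.023, Rpa1 in overexpressor myotubes 0.097, 0.097, 0.13 and 0.072, and Rpa3 there 0.046, 0.046, 0.081 and 0.024. Rpa1 was 0.0012 with no filter. With library totals, Mcm7 was 0.012 and Gins4 0.0042 in overexpressor myotubes. Pole between the clones in myotubes was 0.083 with library totals, 0.010 with no filter and 0.0015 with the compared groups alone. Rpa3 in knockout myoblasts was 0.0030 with no filter. Tipin in the overexpressor response was 0.10, 0.18, 0.10 and 0.027 with DESeq2 size factors, library totals, the Wald test and no filter.

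With 1 library left out, 44 of 1716 named values turned sign and 56 lost a call. Ranges of the results with a turned sign were, in overexpressor myotubes, -0.21 to 0.069 for Mcm7, -0.20 to 0.015 for Gins4, -0.12 to 0.47 for Pola1, -0.22 to 0.027 for Pold2, -0.016 to 0.29 for Rfc1, -0.093 to 0.13 for Rpa1 and -0.14 to 0.020 for Rpa3. In knockout myotubes they were -0.11 to 0.015 for Gins4 and -0.52 to 0.0039 for Ccne2, and between the clones in myotubes -0.12 to 0.078 for Pole and -0.011 to 0.15 for Dscc1. In myoblasts they were -0.34 to 0.20 for Ccne2 and -0.22 to 0.0094 for Rfc1 in the overexpressor, -0.075 to 0.072 for Rpa3 and -0.00096 to 0.067 for Timeless in the knockout, and -0.067 to 0.031 for Rpa1 and -0.19 to 0.030 for Tipin between the clones. In the responses they were -0.076 to 0.21 for Pold2 and -0.12 to 0.14 for Tipin (overexpressor) and -0.017 to 0.11 for Gins4 (knockout). The causes were not tested. Over all genes the split of calls moved with the scaling. Higher and lower genes were 4693 and 5543 in overexpressor myotubes (5943 and 4337 with library totals), 6074 and 5166 for control differentiation (4336 and 7091), 5330 and 6377 for knockout differentiation (4044 and 7839), 2981 and 3996 for the overexpressor response (4312 and 2755, and 3617 and 3088 with DESeq2 size factors) and 3623 and 5355 for the knockout response (4623 and 4273 with DESeq2 size factors).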
